A study of Mus musculus with 12 samples.

Results

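The genes described here are 8 T cell genes measured in mouse colon. Cd3g, Cd4, Trac and Trbc2 are general T cell genes. Icos and Ctla4 are receptors of activated T cells, and Foxp3 and Il2ra are grouped here as regulatory T cell genes. All 8 were taken by name. They are 8 of the 912 features listed for the DSS and Control libraries, and 8 of the 991 features listed in the series. Each was followed through 6 libraries of total colon RNA, 3 from DSS mice and 3 from Control mice. DSS mice drank 2.5% dextran sulfate sodium (DSS), which damages the epithelium of the colon, for 5 days and then plain water for 5 days, in 3 rounds, and received ddH2O alongside. Control mice received ddH2O alone. The labels give no strain, age or sex. The series also holds DSS mice given Banxia Xiexin Decoction (BXD), a multi-herb preparation, at 7.60 (BXD_L) or 15.2 g/kg/day (BXD_H), but 0 of the 8 genes were among the 8 features listed for BXD_L or the 95 for BXD_H, so the decoction groups were not analysed here.

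A T cell recognises antigen through a receptor made of an alpha and a beta chain, and the CD3 proteins carry the signal into the cell. CD4 binds MHC class II and marks helper and regulatory T cells. Activated T cells display ICOS, which adds to the signal, and CTLA-4, which competes with CD28 for CD80 and CD86 and dampens it. FOXP3 is the transcription factor that defines regulatory T cells, which also carry much CTLA-4 and CD25, the interleukin 2 receptor chain encoded by Il2ra. In the colon these cells hold back responses to gut bacteria.

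Values are FPKM, read fragments per kilobase of exon per 1000000 fragments of the library, so levels of different genes can be set side by side. Depth recovered from the spacing of low values was 14.4 to 19.2 times 1000000 fragments per library. Every listed feature differed between DSS and Control means, with 731 higher and 181 lower in DSS and none of the higher ones under 2.15-fold, so the list was probably selected on these same libraries. The calls below are therefore not independent evidence that a gene differed, and adjusted p-values cover listed features only. The titles and treatment labels, which set the groups here, are contradicted by the description of 2 libraries: Control replicate 3 is described there as DSS-treated, and DSS replicate 3 as given the lower decoction dose. Nothing in the labels ties a library to its own mouse, so every p-value below reflects library-to-library spread, part or all of which may be technical. The tissue label could be checked only through Car4 and Slc26a3, the 2 listed genes of 13 on a colon epithelium list. Their summed FPKM was 109 to 457 in DSS and 742 to 1086 in Control libraries, with the lowest value in DSS replicate 2.

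All 8 genes were higher in DSS, and in all 8 the 3 DSS libraries lay above the 3 Control libraries. That pattern held for 77.4% of the 912 features. Mean FPKM was 2.15 to 2.39 times as high in DSS for the 4 general T cell genes. The fold was 3.62 for Ctla4, 3.94 for Icos, 5.27 for Foxp3 and 2.59 for Il2ra. Of the 8 genes, 6 reached 1 FPKM in 3 or more libraries and were tested. Cd3g, Icos and Ctla4 reached 1 FPKM only in the 3 DSS libraries and Control replicate 2, so they met this filter through DSS. Their tests are therefore not independent of that filter. All 6 tested genes rose (limma on log2(FPKM + 1), Benjamini-Hochberg adjusted p under the threshold of 0.05), against 79.2% of the 576 features tested. A call in itself thus sets these genes apart in nothing. In whole-tissue RNA, more T cells and more of these transcripts per T cell cannot be told apart.

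**Figure D1:**
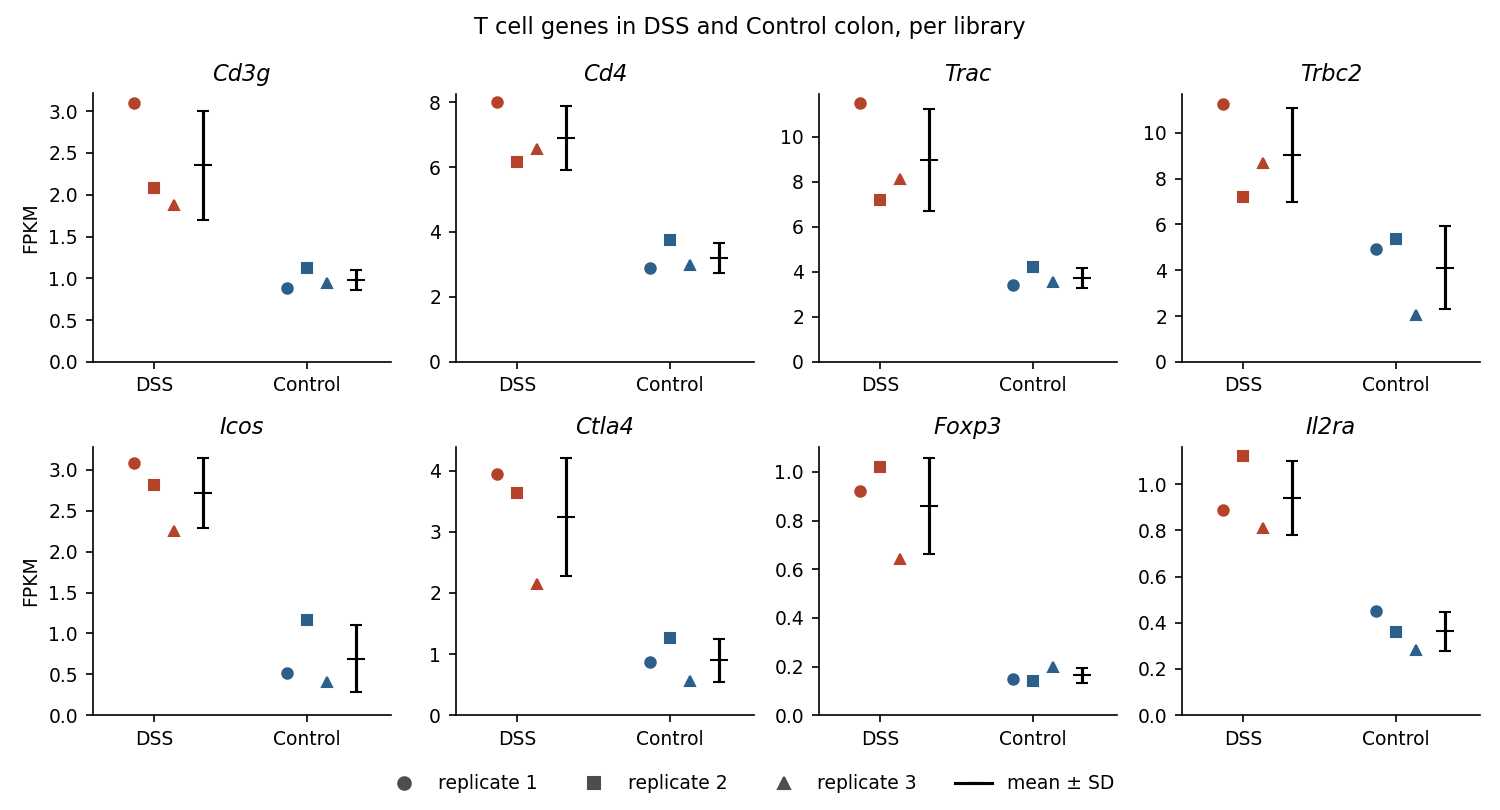
FPKM of each T cell gene in the 3 DSS libraries (red, left) and the 3 Control libraries (blue, right), with marker shape for the replicate number and a bar for mean ± SD; each panel has its own axis from 0. In every panel the lowest DSS library lies above the highest Control library, from 1.34 times as high for Trbc2 to 3.20 times for Foxp3.

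The T cell receptor chains were the most abundant of the 8 genes. Trac, the constant segment of the alpha chain, stood at 11.5, 7.20 and 8.15 FPKM in DSS replicates 1, 2 and 3, against 3.42, 4.24 and 3.56 FPKM in Control replicates 1, 2 and 3. Control libraries lay close together, and DSS replicate 1 was well above the other DSS libraries. Trac averaged 8.96 ± 2.27 FPKM in DSS and 3.74 ± 0.439 FPKM in Control (mean ± SD, n = 3 each, as throughout), and rose by 1.05 on the log2(FPKM + 1) scale (SE 0.25, limma adjusted p = 0.00509). This scale understates the change of genes with low FPKM.

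Trbc2, a constant segment of the beta chain, stood at 11.2, 7.21 and 8.67 FPKM in DSS, against 4.92, 5.38 and 2.05 FPKM in Control. Its Control libraries were the most uneven of the 4 general genes, because Control replicate 3 was low, and the groups were separated by the smallest margin. Trbc2 averaged 9.04 ± 2.05 FPKM in DSS and 4.12 ± 1.80 FPKM in Control, a rise of 1.03 (SE 0.33, limma adjusted p = 0.0145). The call was lost without Control replicate 3 (change 0.69, adjusted p = 0.0595), without DSS replicate 1 (0.87, adjusted p = 0.0503) and without the 2 libraries of conflicting description (0.71, adjusted p = 0.0872). Trbc2 has a near-identical neighbour, Trbc1, with which it can share reads, so its value is uncertain.

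Cd3g, the gamma chain of the CD3 complex, stood at 3.10, 2.08 and 1.88 FPKM in DSS, against 0.89, 1.12 and 0.94 FPKM in Control. It averaged 2.35 ± 0.654 FPKM in DSS and 0.983 ± 0.121 FPKM in Control, a rise of 0.74 (SE 0.19, limma adjusted p = 0.00592). As for Trac, DSS replicate 1 was the highest library and the Control libraries differed little. Cd4, the coreceptor, stood at 8.00, 6.14 and 6.54 FPKM in DSS, against 2.88, 3.74 and 2.98 FPKM in Control. It averaged 6.89 ± 0.979 FPKM in DSS and 3.20 ± 0.470 FPKM in Control, a rise of 0.91 (SE 0.22, limma adjusted p = 0.00526). Its 2.15-fold difference ranks 728th among the 731 features higher in DSS, at the lower edge of the list. The files thus hold Cd4 only just, and T cell genes that differed a little less may not be listed.

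The receptors of activated T cells were lower than the receptor chains in level but had a larger fold of mean FPKM. Their ratios to Trac, given below, overlapped between the groups. Icos stood at 3.08, 2.82 and 2.25 FPKM in DSS, against 0.51, 1.16 and 0.40 FPKM in Control. DSS libraries were close together, while Control replicate 2 was well above the other Control libraries. Icos averaged 2.72 ± 0.425 FPKM in DSS and 0.690 ± 0.411 FPKM in Control, a rise of 1.16 (SE 0.21, limma adjusted p = 0.00343). Ctla4 stood at 3.95, 3.64 and 2.15 FPKM in DSS, against 0.87, 1.26 and 0.56 FPKM in Control. Replicate 3 was the lowest library in both groups. Ctla4 averaged 3.25 ± 0.962 FPKM in DSS and 0.897 ± 0.351 FPKM in Control, a rise of 1.15 (SE 0.23, limma adjusted p = 0.00396). Both genes lie on chromosome 1, Ctla4 from 60887000 to 60915832 and Icos from 60977927 to 61000320 (mm10, plus strand, GENCODE M21), with 62094 bases between them. Cd28, another receptor of this family, is not among the 912 features and was not analysed here.

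Foxp3 and Il2ra were the scarcest of the 8 genes and did not meet the filter on low values, with an FPKM of at least 1 in 1 library each. Foxp3 stood at 0.92, 1.02 and 0.64 FPKM in DSS, against 0.15, 0.14 and 0.20 FPKM in Control. The lowest DSS library was 3.20 times as high as the highest Control library, the widest separation of the 8 genes. At the recovered totals these values come to about 56 to 77 fragments per DSS library and 10 to 15 per Control library. Foxp3 averaged 0.860 ± 0.197 FPKM in DSS and 0.163 ± 0.0321 FPKM in Control. In a fit of all 912 features without the filter its log2(FPKM + 1) change was 0.67 (SE 0.11, limma adjusted p = 0.00511). With a pseudocount of 0.1 in place of 1 the change was 1.85 (SE 0.29, limma adjusted p = 0.00356). Foxp3 (chromosome X, 7573644 to 7595245, mm10) shares 856 of its 4577 exon bases with genes on the opposite strand, the protein-coding Ccdc22 and Ppp1r3f and the transcript Gm36995. It also shares 853 exon bases with the noncoding gene Flicr on its own strand. The sources used here do not give whether counting used strand. Reads of the opposite-strand genes can be told from those of Foxp3 there only by strand, and reads of Flicr not even by strand.

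Il2ra stood at 0.89, 1.12 and 0.81 FPKM in DSS, against 0.45, 0.36 and 0.28 FPKM in Control. DSS replicate 2 was the highest library, as for Foxp3, and the groups did not overlap. These values come to about 78 to 106 fragments per DSS library and 26 to 37 per Control library. Il2ra averaged 0.940 ± 0.161 FPKM in DSS and 0.363 ± 0.0850 FPKM in Control. Without the filter its change was 0.51 (SE 0.12, limma adjusted p = 0.00786), and 1.17 with a pseudocount of 0.1 (SE 0.29, limma adjusted p = 0.00728). In that fit without a filter all 8 genes passed, against 77.6% of the 912 features called higher.

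Promoter windows of RefSeq (GRCm38.p6, from 250 bases before to 50 bases after an annotated start) were held for 4 of the 8 genes, Cd3g, Ctla4, Foxp3 and Il2ra, 5 windows in all. They were searched on both strands for the ETS core GGAA, the NFAT motif GGAAAA, which overlaps the ETS core, the RUNX motif TGTGGT, the AP-1 motif TGACTCA and the TATA box as TATAAA. The windows of Ctla4 and Foxp3 are shown because these genes held all of the matches other than GGAA, with NFAT and TATA box matches in capitals. Positions are counted from the annotated start.
Ctla4, chr1:60908775-60909074, plus strand: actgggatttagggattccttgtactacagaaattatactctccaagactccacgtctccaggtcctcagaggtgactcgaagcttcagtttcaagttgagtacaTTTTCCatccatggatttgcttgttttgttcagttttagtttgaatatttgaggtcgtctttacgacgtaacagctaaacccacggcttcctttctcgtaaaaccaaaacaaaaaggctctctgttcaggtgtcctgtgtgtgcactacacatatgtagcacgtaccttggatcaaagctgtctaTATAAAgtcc
Foxp3 first start, chrX:7579426-7579725, plus strand: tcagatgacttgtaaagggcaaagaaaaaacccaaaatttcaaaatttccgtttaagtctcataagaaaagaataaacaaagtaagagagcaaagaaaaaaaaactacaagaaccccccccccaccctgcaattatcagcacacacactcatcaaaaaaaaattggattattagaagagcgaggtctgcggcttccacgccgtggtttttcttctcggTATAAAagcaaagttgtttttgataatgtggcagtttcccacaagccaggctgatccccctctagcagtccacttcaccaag
Foxp3 second start, chrX:7580233-7580532, plus strand: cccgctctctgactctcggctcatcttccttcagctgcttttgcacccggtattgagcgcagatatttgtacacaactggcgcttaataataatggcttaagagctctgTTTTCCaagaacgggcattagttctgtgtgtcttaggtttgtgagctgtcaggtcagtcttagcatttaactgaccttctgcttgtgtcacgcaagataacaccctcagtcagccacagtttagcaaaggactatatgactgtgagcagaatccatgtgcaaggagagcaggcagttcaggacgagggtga
Ctla4 has GGAAAA on the opposite strand, beginning 145 bases before the start, and TATAAA 40 bases after it. At the first Foxp3 start TATAAA begins 32 bases before the start, and at the second Foxp3 start GGAAAA lies on the opposite strand, beginning 141 bases before the start. Of all 32851 windows in the table, 23.4% hold GGAAAA and 13.6% TATAAA on either strand. GGAA occurs in all 5 windows of these genes and in 96.0% of the table. TGTGGT and TGACTCA, held by 16.8% and 5.20% of the table, do not occur in the 5 windows as these letters. A match describes the letters only.

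Set among all listed features, the 8 genes spread over much of the range of rises. The median log2(FPKM + 1) change was 0.97 for the 8 genes, 0.67 for all 912 features and 0.87 for the 731 features higher in DSS. By fold of mean FPKM the median was 2.49 for the 8 genes and 2.89 for those 731 features. Foxp3 ranked 132nd of the 731, Icos 205th and Ctla4 233rd. Il2ra ranked 460th, Trac 551st, Cd3g 554th, Trbc2 694th and Cd4 728th.

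**Figure D2:**
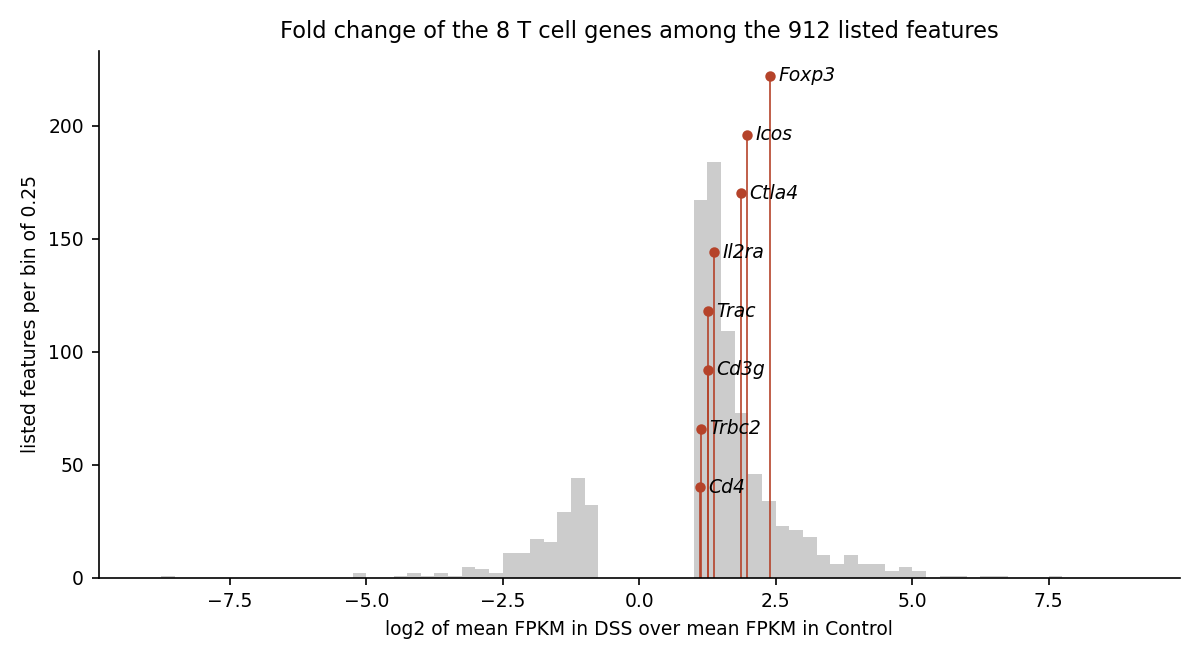
Histogram of the log2 ratio of mean FPKM in DSS to mean FPKM in Control for the 912 listed features, with the 8 T cell genes marked in red; the height of a marker has no meaning. Cd4 and Trbc2 lie near the lower edge of the 731 higher features, and Foxp3, at 5.27-fold, lies furthest to the right of the 8.

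Whether the activation and regulatory genes differed by more than the T cell receptor itself was measured as FPKM in percent of Trac FPKM within each library, which does not depend on library scaling. By fold of mean FPKM, Trac ranked only 551st of the 731 features higher in DSS. Most of those features thus rose by more than Trac, so a higher ratio in DSS is common in the list. How many listed features separate the groups in their ratio to Trac was not counted. The Foxp3 to Trac ratio was 7.99, 14.2 and 7.85% in DSS, against 4.39, 3.30 and 5.62% in Control. The groups did not overlap, and the ratio was 2.22 times as high in DSS (log2 difference 1.15, or 0.64 with a pseudocount of 0.1 added to both terms). With 3 libraries against 3 the two-sided exact permutation test cannot go below p = 0.1, and it gave 0.1 for Foxp3, or 0.267 after adjustment over the 4 ratios. The Foxp3 ratio did not separate the groups with Trbc2 as the denominator, where Control replicate 3 stood at 9.76%, above DSS replicates 1 and 3 at 8.18 and 7.38%.

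The Icos to Trac ratio was 26.7, 39.2 and 27.6% in DSS, against 14.9, 27.4 and 11.2% in Control, 1.85 times as high (exact permutation p = 0.2, adjusted 0.267). Control replicate 2 lay between DSS replicates 1 and 3, so the groups overlapped. The Ctla4 to Trac ratio was 34.3, 50.6 and 26.4% in DSS, against 25.4, 29.7 and 15.7% in Control, 1.57 times as high (exact permutation p = 0.2, adjusted 0.267), again with overlap. The Il2ra to Trac ratio was 7.73, 15.6 and 9.94% in DSS, against 13.2, 8.49 and 7.87% in Control, 1.11 times as high (exact permutation p = 0.7, adjusted 0.7). DSS replicate 1 was the lowest of the 6 libraries for this ratio. The direction of the Il2ra ratio turned without DSS replicate 2 (log2 difference −0.13, against 0.15 with all libraries). Which ratios separated the groups depended on the denominator. Over Cd3g, Foxp3 and Ctla4 did (exact permutation p = 0.1 each), over Trbc2 Icos alone (p = 0.1), and over Cd4 Foxp3 and Icos (p = 0.1 each). The log2 difference of the Ctla4 to Trac ratio was 0.65, but 0.38 without Control replicate 3 and 0.40 without DSS replicate 2. None of the 4 differences of ratio passed a threshold that the design could not reach.

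**Figure D3:**
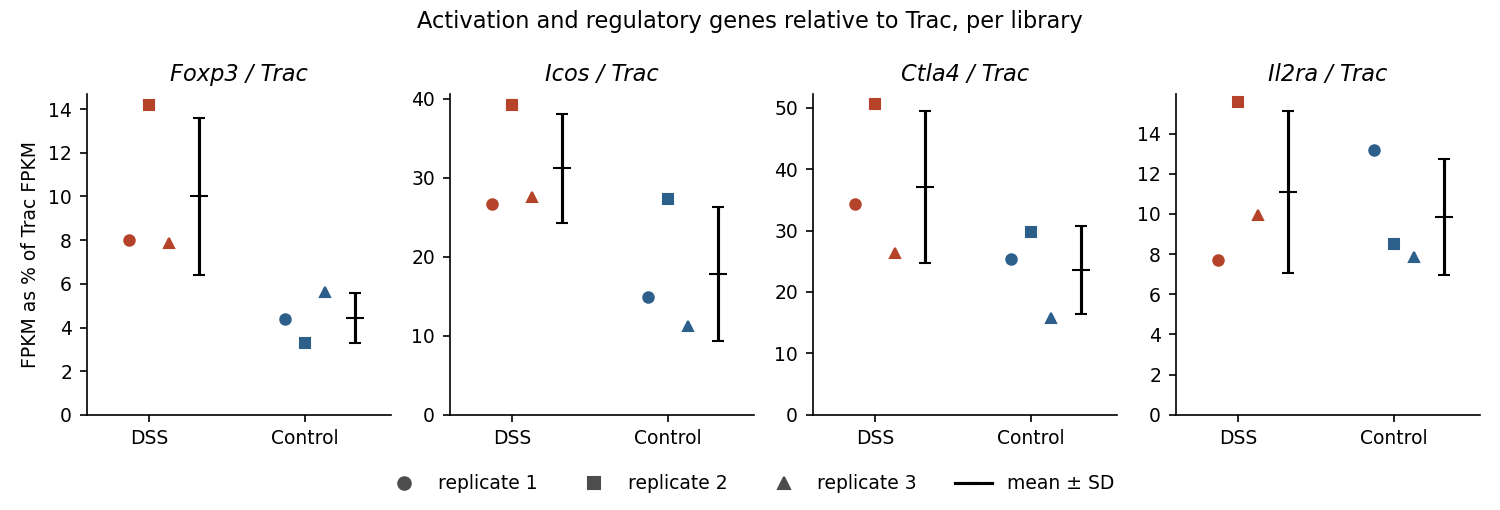
FPKM of Foxp3, Icos, Ctla4 and Il2ra as a percentage of Trac FPKM in the same library, for DSS (red, left) and Control (blue, right), with marker shape for the replicate number and a bar for mean ± SD. The Foxp3 ratio is 7.85% or more in DSS and 5.62% or less in Control, and the other 3 ratios overlap.

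Within groups, the 6 tested genes moved largely together from library to library. All 6 were highest in DSS replicate 1, while Foxp3 and Il2ra were highest in DSS replicate 2. Among the 731 features higher in DSS, 29.7% were highest in DSS replicate 1. Control replicate 2 held the highest Control value of 6 of the 8 genes. The shares of listed features highest in Control replicate 2 or in DSS replicate 2 were not counted. Pearson's correlation of a gene's deviations from its group means with the mean deviation of the other tested genes was 0.65 to 0.86 for the 6, but 0.13 for Foxp3 and 0.12 for Il2ra. These are descriptions over 6 libraries that share their depth and scaling. DSS replicate 2, where Foxp3 and Il2ra peaked, had 72.8 FPKM of Car4, a carbonic anhydrase of surface colonocytes, against 230.1 and 369 FPKM in DSS replicates 1 and 3. The part of epithelial content in these results was not tested.

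**Figure D4:**
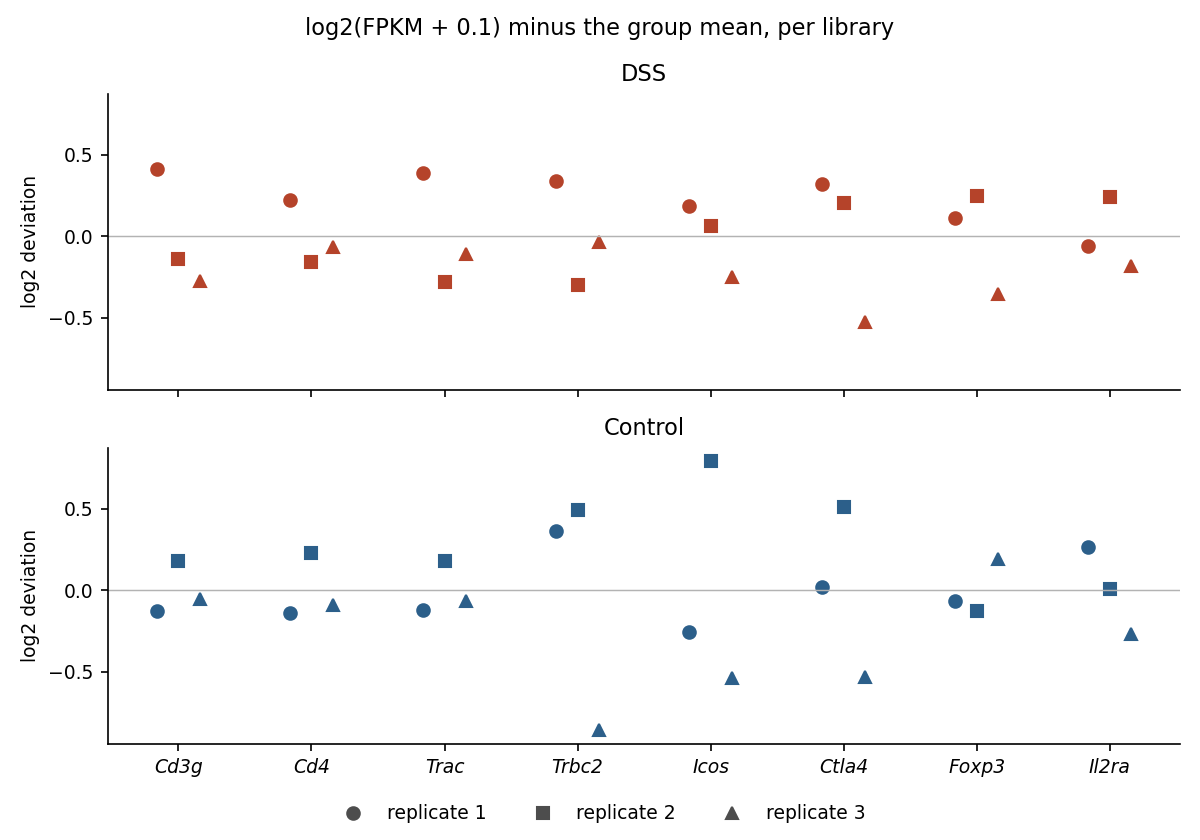
Deviation of log2(FPKM + 0.1) from the group mean for each T cell gene, in the 3 DSS libraries (top) and the 3 Control libraries (bottom), with marker shape for the replicate number. DSS replicate 1 (circles) is the highest DSS library for Cd3g, Cd4, Trac, Trbc2, Icos and Ctla4, whereas replicate 2 (squares) is the highest for Foxp3 and Il2ra.

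By a fixed rule, the features with library-to-library deviations most like those of the 6 tested genes were taken from 188 other features with a mean of at least 5 FPKM. They were Cd68 (Pearson 0.98), Vcam1 (0.95), Sirpa (0.94), Mpeg1 (0.94), C4b (0.93), Clec7a (0.90), Cx3cr1 (0.87) and Apoe (0.84), over 6 libraries. As the highest of 188 over so few libraries, such correlations can be high without any link between the genes. Whether these exceed that was not tested. The floor of 5 FPKM also left out T cell genes of lower level, such as Lcp2, Cd5 and Cd6. Cd68, Sirpa, Mpeg1, Clec7a and Cx3cr1 are known from macrophages and related myeloid cells. Cd68 stood at 31.6, 25.6 and 24.8 FPKM in DSS, against 11.2, 14.6 and 10.5 FPKM in Control, with the same highest libraries as Trac. Of 16 macrophage and dendritic cell markers 5 were listed, and all 5 rose, against 79.2% of tested features called higher. Their summed FPKM was 40.9 to 49.97 in DSS and 16.7 to 22.7 in Control, and none was at 0 in a library. Of the 5, Cd209a and Fcgr1 did not reach 1 FPKM in all 3 Control libraries, so they met the filter through DSS. The part of other leukocytes in the T cell values was not tested.

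Other genes of T cell receptor signalling were higher too. Of 31 names on that list 10 were listed, 4 of them described above, and all 3 others that were tested rose, against 79.2% of tested features called higher. Thy1, a surface protein of T cells and also of fibroblasts, averaged 11.6 ± 1.60 FPKM in DSS and 4.33 ± 0.821 FPKM in Control (change 1.24, limma adjusted p = 0.00373). Lcp2, which encodes the adaptor SLP-76, averaged 4.97 ± 0.570 FPKM in DSS and 2.05 ± 0.442 FPKM in Control (change 0.97, limma adjusted p = 0.00419). Fyb, an adaptor of T and myeloid cells, averaged 6.14 ± 0.765 FPKM in DSS and 2.84 ± 0.472 FPKM in Control (change 0.89, limma adjusted p = 0.00526). Below the filter, the T cell surface gene Cd5 averaged 0.837 ± 0.153 FPKM in DSS and 0.297 ± 0.0208 FPKM in Control, and its relative Cd6 averaged 0.720 ± 0.214 FPKM in DSS and 0.213 ± 0.0902 FPKM in Control. Cd5, Cd6 and Fyb were highest in DSS replicate 1, like the receptor genes, but Thy1 and Lcp2 were highest in DSS replicate 2. The CD3 genes Cd3d, Cd3e and Cd247, the CD8 genes Cd8a and Cd8b1, and Lck and Zap70 are not among the 912 features and were not analysed here.

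Of 18 co-stimulation and checkpoint genes 4 were listed, among them Icos and Ctla4. Havcr2, which encodes the inhibitory receptor TIM-3 of T cells and myeloid cells, rose to 2.91 ± 0.537 FPKM in DSS, against 1.22 ± 0.0321 FPKM in Control (change 0.81, limma adjusted p = 0.00447). Tnfrsf9, the co-stimulatory receptor 4-1BB, was below the filter at 0.48, 1.15 and 0.50 FPKM in DSS, against 0.26, 0.11 and 0.09 FPKM in Control. Of 14 ligands and partners on antigen presenting cells 2 were listed, both below the filter. Cd80, a ligand of CTLA-4, stood at 1.26, 1.79 and 0.80 FPKM in DSS, against 0.36, 0.94 and 0.40 FPKM in Control, with overlapping groups. Pdcd1lg2, which encodes the PD-1 ligand PD-L2, stood at 0.89, 0.55 and 0.61 FPKM in DSS, against 0.32, 0.12 and 0.22 FPKM in Control.

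Of 22 names on the regulatory T cell list 6 were listed, and the 2 tested, Entpd1 and Lrrc32, rose, against the same 79.2% of tested features. Entpd1, which encodes the ectonucleotidase CD39 of regulatory T cells, endothelium and myeloid cells, averaged 14.1 ± 3.08 FPKM in DSS and 6.16 ± 0.719 FPKM in Control (change 1.06, limma adjusted p = 0.00563). Lrrc32, which encodes GARP, a surface anchor of latent TGF-beta also found on endothelium, averaged 4.20 ± 1.57 FPKM in DSS and 1.70 ± 0.473 FPKM in Control (change 0.91, limma adjusted p = 0.01003). Both were highest in DSS replicate 2, but Ccr4 and Izumo1r, given next, were highest in DSS replicates 1 and 3. Ccr4, a chemokine receptor of regulatory and type 2 helper T cells, was below the filter at 1.09, 0.97 and 0.56 FPKM in DSS, against 0.11, 0.29 and 0.20 FPKM in Control. Izumo1r, which encodes folate receptor 4 of regulatory and other CD4 T cells, was below it at 0.45, 0.65 and 0.81 FPKM in DSS, against 0.24, 0.23 and 0.11 FPKM in Control. Each of these 4 genes had its 3 DSS libraries above its 3 Control libraries, as did 77.4% of the 912 features. Il10, Ikzf2 and Tgfb1 are not among the 912 features and were not analysed here.

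Of 15 T cell homing genes 4 were listed, and all 4 were tested and rose, against 79.2% of tested features called higher. Ccr7, the receptor that guides T cells and dendritic cells to lymphoid tissue, stood at 3.94, 3.04 and 1.64 FPKM in DSS, against 0.88, 1.64 and 0.62 FPKM in Control (change 0.90, limma adjusted p = 0.0117). DSS replicate 3 and Control replicate 2 had the same value, so its groups touched. Itgal, the alpha chain of the integrin LFA-1, averaged 5.37 ± 0.316 FPKM in DSS and 2.48 ± 0.466 FPKM in Control (change 0.88, limma adjusted p = 0.00496). Cxcr6, a receptor of tissue-resident T cells, averaged 2.75 ± 1.06 FPKM in DSS and 1.16 ± 0.472 FPKM in Control (change 0.78, limma adjusted p = 0.0137). Ccr7 and Cxcr6 did not reach 1 FPKM in all 3 Control libraries, so they too met the filter through DSS. None of the 19 names on the helper subset list, the 11 on the NK and cytotoxic list, the 13 on the B cell list or the 10 on the innate lymphoid list is among the 912 features.

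**Figure D5:**
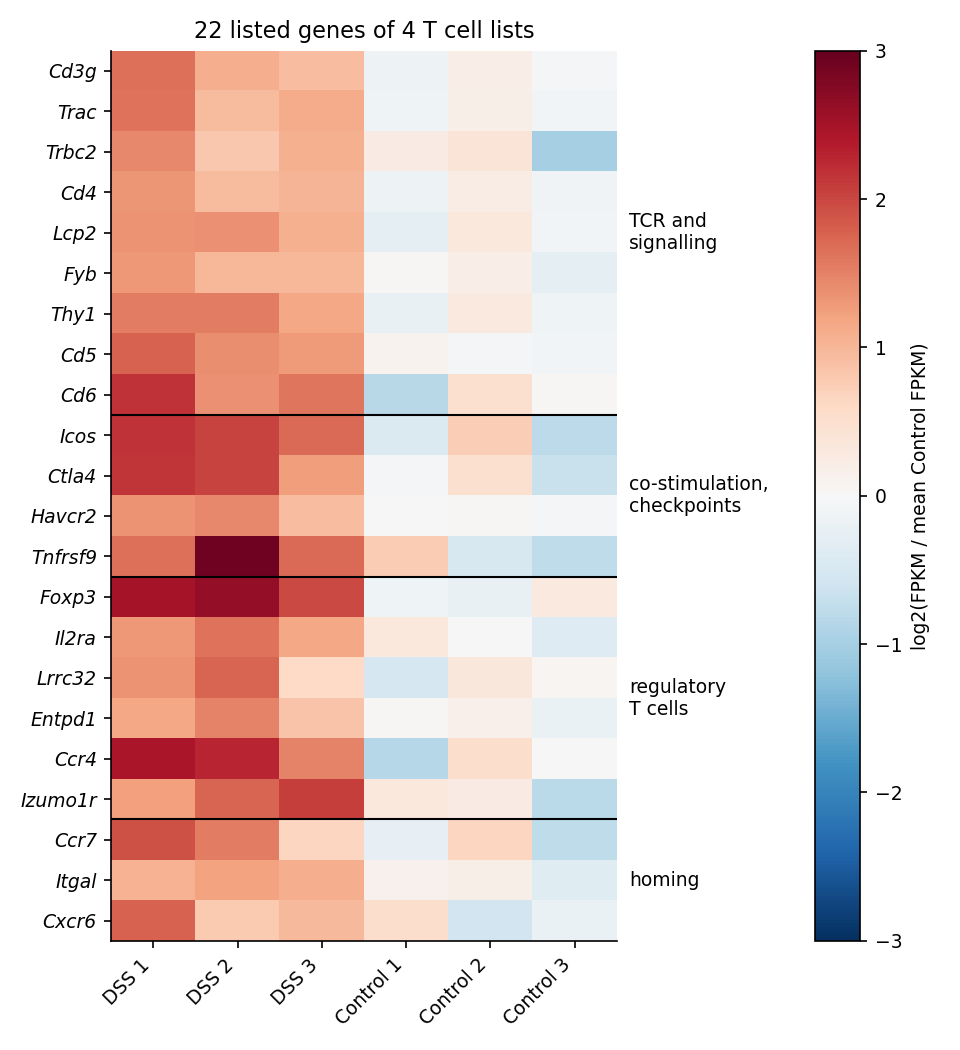
log2 of FPKM over the mean Control FPKM for 22 listed genes of 4 T cell lists, with the 3 DSS libraries on the left and the 3 Control libraries on the right; red is above and blue below the Control mean. Every gene is red in the 3 DSS libraries, and the deepest red among the regulatory T cell genes is that of Foxp3 and Ccr4.

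These rises are relative to the library total. Beside the calls of Trbc2 given above, calls ended under 2 choices. Centring each library on the median of its listed features took 0.65 off each log2 change, since most listed features are higher in DSS. After it Icos alone of the 6 tested genes passed (change 0.51, limma adjusted p = 0.0461), against 19.6% of features called higher. The other 5 stood at 0.094 (Cd3g), 0.26 (Cd4), 0.38 (Trbc2), 0.40 (Trac) and 0.50 (Ctla4), and without the filter Foxp3 stood at 0.024 and Il2ra, with its direction turned, at −0.14. With groups taken from the description text 0 of the 6 genes passed, as did 8 of all 576 features.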

How the data were processed

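Total RNA of mouse colon was taken up in TRIzol and sequenced from NEBNext Ultra libraries, per the labels' protocols. The submitters' processing notes name bcl2fastq, FastQC and fastp and the build mm10. Aligner, counter, use of strand and how the listed features were selected: not given in the sources used here. Per the file headers, the authors deposited FPKM, 1 library to a file. Genes were matched by Ensembl identifier to GENCODE M21 (GRCm38, the build of mm10), which matched 981 of 991 features.

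Library totals were recovered as the total at which FPKM times exon length gave whole fragments, within rounding and at most 0.2 fragments, for 59 to 94 genes under 1200 exon bases. At that total 89.8 to 95.7% were whole. Fragments per gene rest on annotated lengths. At most 25 of 912 values were equal between libraries of a group, so none was counted as a copy.

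On the scale log2(FPKM + 1), limma 3.58.1 (R 4.3.3) was run, fitting a mean for each group over the 12 libraries (a feature enters only for libraries listing it) with a trended spread. Tests were two-sided on features reaching 1 FPKM in 3 or more libraries, with Benjamini-Hochberg adjustment and a threshold of 0.05. Ratios to Trac were compared with exact permutation tests over the 6 libraries. The alternatives tried are given below, and those without a filter for Foxp3 and Il2ra alone were chosen after seeing the data.

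The 8 genes, the 15 gene lists and the naming rule were chosen with earlier results of these data known. All 8 genes were named, then every listed gene of the T cell lists apart from 2 that are not reported here, and the 8 features most like the 6 tested genes in their deviations from group means, leaving out immunoglobulin segments. Of the list names, Trgc1, Trgc2 and Folr4 have no gene of that symbol in the annotation. Beyond the lists described, 2 of 9 plasma cell genes, 3 of 9 lymphoid stroma genes, 1 of 10 leukocyte genes and 0 of 5 smooth muscle genes were listed.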

Additional observations from a re-analysis of the deposited data

How the results depend on the processing

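The number of the 6 tested T cell genes past the threshold was 5 or 6 when each library was left out in turn, and 5 without the 2 libraries of conflicting description, with Trbc2 the gene lost. It was 6 with a pseudocount of 0.1, an untrended spread, a fit of the 6 libraries alone or totals without immunoglobulin fragments. Over all features 571 passed, 528 to 562 with a library left out, 877 of 912 without a filter (708 higher, 169 lower), 231 of 576 after centring (113 higher, 118 lower, against 456 and 115) and 8 with groups from the description text. Under that text 0 T cell genes passed, with log2 changes of 0.54 for Cd3g, 0.57 for Cd4, 0.69 for Trac, 0.13 for Trbc2, 0.63 for Icos and 0.68 for Ctla4. After centring 1 passed, with Cd3g at 0.094, Cd4 at 0.26, Trac at 0.40, Trbc2 at 0.38 and Ctla4 at 0.50. The loss of calls after centring follows from subtracting a median of mostly rises, and the cause under the description text was not tested.

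Trbc2 changed by 0.69 to 1.22 with a library left out and by 0.71 without the 2 libraries. Without a filter Foxp3 changed by 0.67 and Il2ra by 0.51. Chosen after seeing the data, the same fit gave 1.85 and 1.17 with a pseudocount of 0.1, 0.78 and 0.51 without the 2 libraries, 0.61 to 0.76 and 0.44 to 0.56 with a library left out, and 0.024 and −0.14 after centring. The Il2ra to Trac log2 ratio difference of 0.15 reversed to −0.044 with a pseudocount of 0.1 and ran from −0.13 (without DSS replicate 2) to 0.38 with a library left out. The log2 ratio differences of Foxp3, Icos and Ctla4 (1.15, 0.89 and 0.65) kept their direction under all alternatives run but not their size, at 0.64, 0.73 and 0.55 with a pseudocount of 0.1 and 0.87 to 1.34, 0.60 to 1.25 and 0.38 to 0.87 with a library left out.

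Same-numbered libraries did not deviate together (correlations of −0.05, 0.02 and 0.08 over 576 features). No pairing by number was seen, but with 3 libraries per group this check cannot exclude it. With the replicate number as a block 570 features and all 6 tested T cell genes passed. Foxp3 rests on 10 to 15 fragments per Control library, which limits the precision of its fold change.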

Other observations

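A further T cell receptor segment was listed beside Trac and Trbc2, and it was noted after its values were seen. Trdv4, a variable segment of the delta chain used by gamma delta T cells, stood at 1.61, 2.30 and 1.18 FPKM in DSS, against 0.47, 0.27 and 0.14 FPKM in Control. It averaged 1.70 ± 0.565 FPKM in DSS and 0.293 ± 0.166 FPKM in Control, a rise of 1.05 on the log2(FPKM + 1) scale (SE 0.19, limma adjusted p = 0.00346). Trdv4 reached the 1 FPKM of the filter in the DSS libraries and in no Control library. Its highest library was DSS replicate 2, as for Foxp3, Il2ra, Thy1 and Lcp2, and not DSS replicate 1, as for Trac and Trbc2. A single short segment rests on few fragments, and related segments can share reads.

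Ltb and Prdm1, from the lymphoid tissue and plasma cell lists, were also called higher, as were 79.2% of tested features. Ltb, the lymphotoxin beta gene of lymphocytes, averaged 4.85 ± 1.22 FPKM in DSS and 2.01 ± 0.993 FPKM in Control (change 0.99, limma adjusted p = 0.00864) and was highest in DSS replicate 1. Tnfsf11, which encodes RANKL, stood at 1.89, 1.99 and 0.58 FPKM in DSS, against 0.59, 0.83 and 0.22 FPKM in Control, with overlapping groups and below the filter. Prdm1, the gene of BLIMP-1, found in plasma cells, effector T cells and some epithelium, averaged 5.84 ± 1.28 FPKM in DSS and 1.91 ± 0.473 FPKM in Control (change 1.23, limma adjusted p = 0.00356).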
